A study of Drosophila melanogaster with 7 samples.

Results

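The nuclear tRNA genes of *Drosophila melanogaster* were taken as all genes on the arms X, 2L, 2R, 3L, 3R and 4 whose symbol in the RefSeq table of Release 6 (the assembly of the dm6 build) starts with tRNA: , which gave 295 of 17684 genes. Of these, 290 were annotated as tRNA and 5 as tRNA pseudogenes. They carried 22 amino acid labels, counting initiator methionine (iMet) and selenocysteine (SeC) apart, and measured 71 to 186 bp with a median of 73 bp. There were 100 on 2R, 79 on 3R, 49 on 3L, 41 on 2L, 26 on X and none on chromosome 4.

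Binding of CLAMP, a zinc-finger protein that recognises GA-rich DNA and takes part in male dosage compensation, had been mapped in unfixed cells by CUT&RUN: a nuclease tethered through the antibody cuts the DNA around the protein, and what is released is sequenced. The cells were S2, labelled male, and Kc, labelled female, both untreated embryonic lines, and 3 S2 and 2 Kc libraries were made with rabbit anti-CLAMP. Each line had 1 control library with rabbit IgG. The submitters had dropped 1 further Kc CLAMP sample for lack of material, and nothing in the labels says that libraries of a group came from separate cultures.

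tRNA genes are transcribed by RNA polymerase III from promoter elements inside the gene. These are bound by the factor TFIIIC, which places TFIIIB upstream, and in *Drosophila* TFIIIB contains Trf, a relative of the TATA-binding protein. Many tRNA genes lie in clusters, and copies of one sequence family share the mature tRNA sequence. In budding yeast some tRNA genes act as barriers to heterochromatin.

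The deposited lists held 5535 to 9832 peaks on the main arms for the CLAMP libraries, 1165 for S2 IgG and 8615 for Kc IgG. Read numbers were not in the lists, so the depth is unknown. S2 CLAMP replicate 3 stood apart, since 32.7% of its peaks had a q-value of 0.0001 or less, against 53.7% to 76.4% in the other CLAMP libraries, and the share was 33.7% in Kc IgG and 64.3% in S2 IgG.

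Peaks were called at tRNA genes with the CLAMP antibody in both lines, and with IgG in neither. A tRNA gene was counted when a peak overlapped it or the 200 bp to either side by at least 1 bp. By this count 82, 37 and 10 of the 295 genes had a peak in S2 CLAMP replicates 1, 2 and 3, and 24 and 53 had one in Kc CLAMP replicates 1 and 2. Neither IgG library had one (0 of 295 each), whereas 19.7% of all genes had a peak in at least 1 IgG library and 1.69% in both. In plain counts, which make no allowance for list length, the lowest CLAMP library therefore lay above both IgG libraries. The CLAMP libraries of the same line differed widely among themselves.

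As shares, 27.8%, 12.5% and 3.39% of the tRNA genes had a peak in the S2 CLAMP libraries and 8.14% and 18.0% in the Kc CLAMP libraries. Over all 17684 genes the shares were 29.7%, 21.3% and 13.4% in S2 CLAMP, 22.3% and 22.8% in Kc CLAMP, 3.16% in S2 IgG and 18.3% in Kc IgG, but most genes are far longer than a tRNA gene. A comparison at equal length was made with all 473 bp windows of the main arms, the length of a median tRNA gene with its flanks. Such a window overlapped a peak in 6.33%, 5.92% and 3.28% of positions for the S2 CLAMP lists, 5.81% and 5.59% for the Kc CLAMP lists, 0.725% for S2 IgG and 5.04% for Kc IgG. Kc IgG thus covered nearly as much of the genome as the Kc CLAMP lists.

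**Figure D1:**
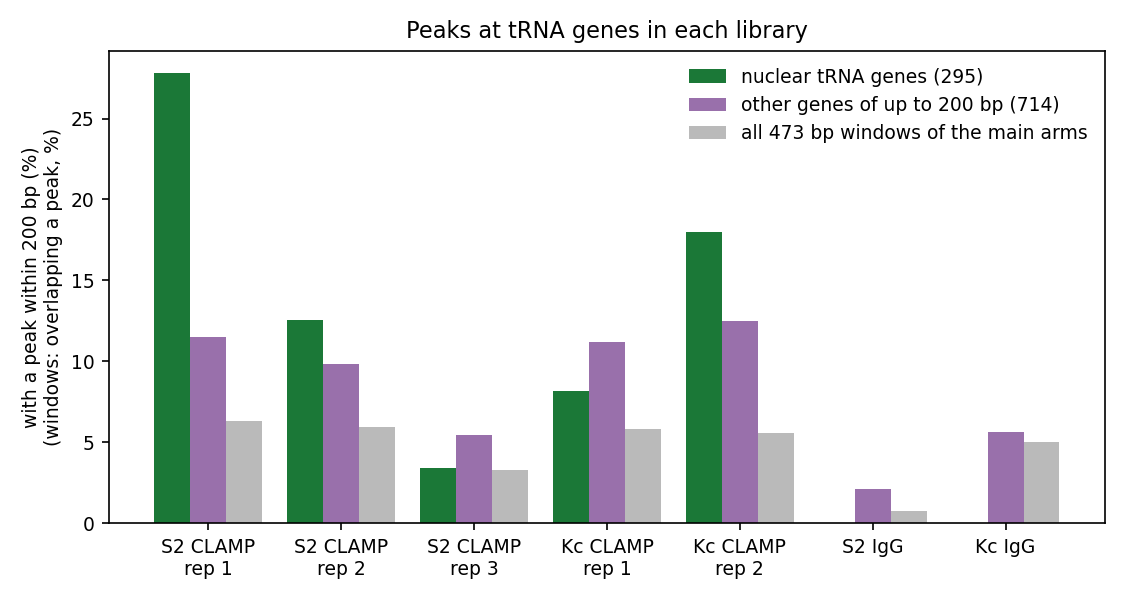
Share (%) of the 295 nuclear tRNA genes and of the 714 other genes of up to 200 bp with a peak within 200 bp, and share (%) of all 473 bp window positions overlapping a peak, for each of the 7 libraries. Bars are single-library values; the tRNA bar is at 0 in both IgG libraries, while the window bar of Kc IgG stands at 5.04%.

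The share of tRNA genes divided by the share of windows was 4.39, 2.12 and 1.03 in S2 CLAMP replicates 1 to 3, 1.40 and 3.21 in Kc CLAMP replicates 1 and 2, and 0 in both IgG libraries. S2 replicate 3 was at about the level of the windows. The mean was 2.43 ± 1.38 for CLAMP (SD, n = 5) and 0 for IgG (n = 2). In an exact two-sided permutation test with 21 possible labellings the difference gave p = 0.0952, and 0.254 after Benjamini-Hochberg adjustment over 8 tests (smallest possible p 0.0476). For the plain number of genes, 41.2 ± 27.8 (SD, n = 5) against 0 (n = 2), the exact permutation p was 0.143 and the adjusted p 0.286. Neither passed 0.05, and within a line 1 IgG library allows no test.

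List length was then made equal. With the 1165 strongest peaks of every list, 10, 7 and 2 tRNA genes had a peak in S2 CLAMP, 2 and 8 in Kc CLAMP, and 0 in either IgG library. The ratio to windows was then 2.59, 2.13 and 0.686 in S2 CLAMP and 0.671 and 2.36 in Kc CLAMP, so that S2 replicate 3 and Kc replicate 1 lay below their own windows, with 2 genes each. The IgG peak nearest to any tRNA gene lay 705 bp from tRNA:Glu-CTC-3-4 in S2 and 270 bp from tRNA:Gly-GCC-2-1 in Kc.

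Other short genes were not all free of IgG peaks, and they also held CLAMP peaks. Of the 714 other genes of up to 200 bp, 40 (5.60%) had a peak in Kc IgG and 15 had one in S2 IgG, while for the 260 miRNA genes the numbers were 10 and 5. The 257 snoRNA genes came closer to the tRNA genes, with 2 (0.778%) and 0. With CLAMP, 11.5%, 9.80% and 5.46% of the 714 genes had a peak in S2 and 11.2% and 12.5% in Kc. The tRNA genes lay above these shares in S2 replicates 1 and 2 and Kc replicate 2, and below them in S2 replicate 3 and Kc replicate 1.

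CLAMP peaks covered more of the bases 151 to 200 bp from the tRNA genes than of the genes themselves, while the bases next to the genes were covered about as much as the genes. In S2 CLAMP replicate 1 peaks covered 9.22% of the bases of the genes and 14.3% of the bases 151 to 200 bp away. The same pair of values was 4.83% and 6.01% in S2 replicate 2, 1.20% and 1.86% in S2 replicate 3, 2.18% and 3.55% in Kc replicate 1, and 5.49% and 8.85% in Kc replicate 2. The bases at 151 to 200 bp were covered more in 5 of 5 CLAMP libraries. At 1 to 50 bp the values were 9.19%, 5.55% and 0.878% in S2 and 2.33% and 5.46% in Kc, below those of the genes in S2 replicates 1 and 3 and Kc replicate 2. At 51 to 100 bp S2 replicate 3, with 1.12%, and Kc replicate 1, with 2.08%, were still below them.

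Where the coverage was highest differed between libraries. Within 3000 bp it reached its highest value 151 to 200 bp from the gene in S2 replicate 1, with 14.3%, and 101 to 150 bp away in Kc replicate 2, with 9.06%. In the other CLAMP libraries the highest value lay farther out, with 7.30% at 601 to 650 bp in S2 replicate 2, 2.20% at 551 to 600 bp in S2 replicate 3 and 7.11% at 1051 to 1100 bp in Kc replicate 1. Over the whole main arms the 5 CLAMP lists covered 3.67%, 3.20%, 1.54%, 2.83% and 2.97% of bases in the same order of groups (S2 replicates, then Kc), so the tRNA genes themselves were covered less than the arms in S2 replicate 3 and Kc replicate 1. The Kc IgG list covered 2.30% of the arms and at most 2.08% of the bases at any distance up to 3000 bp from the tRNA genes. Within 500 bp of a tRNA gene Kc IgG had a peak at 5 genes (1.69%), against 51 (17.3%) and 75 (25.4%) for Kc CLAMP. Windows lengthened to this flank overlapped a peak in 8.05% of positions for Kc IgG and in 8.76% and 8.30% for Kc CLAMP. Kc IgG thus lay below its windows, and the Kc CLAMP libraries lay above theirs.

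Of the 146 CLAMP peaks at tRNA genes over the 5 libraries, 6 had their summit inside a tRNA gene (3 of 55, 1 of 29, 0 of 8, 1 of 20 and 1 of 34). The median distance from the summit to the nearest tRNA gene was 160, 189 and 188.5 bp in the S2 libraries and 234 and 141.5 bp in the Kc libraries. With pairs of 25 bp reads, fragments lying wholly within identical copies cannot be told apart by sequence. How such reads were counted is not given in the labels. Genes that are the only copy of their family (43) were covered to 5.07% in S2 CLAMP replicate 1, against 13.4% for the bases 101 to 200 bp away, and genes in families of 5 or more copies (189) to 6.79% against 11.8%. The order was turned for the only copies in S2 replicate 2, with 9.85% against 7.23%, and for families of 2 to 4 copies in S2 replicate 3, with 4.03% against 3.17%, and in Kc replicate 1, with 5.29% against 5.06%. The part of read placement in the lower coverage of the genes was not tested.

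**Figure D2:**
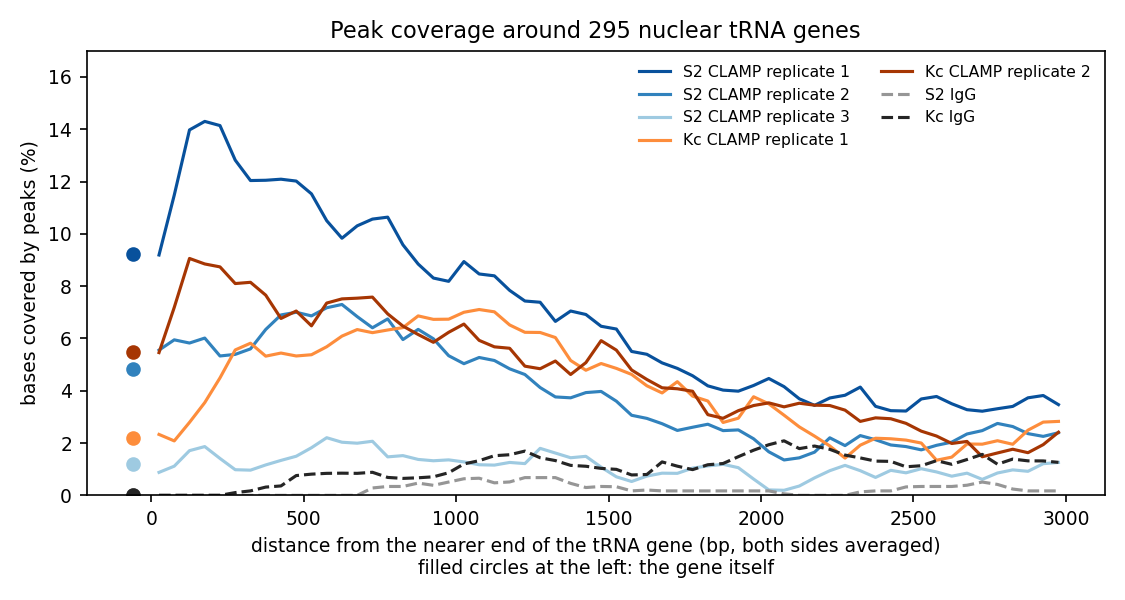
Share (%) of bases covered by peaks against the distance (bp, both sides averaged, in steps of 50 bp) from the nearer end of 295 nuclear tRNA genes, 1 line per library, with filled circles for the gene itself. The 5 CLAMP libraries lie below their value at 151 to 200 bp inside the gene, and both IgG libraries are at 0 for the first 250 bp.

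No difference between the male and the female line was detectable in the number of tRNA genes with a CLAMP peak. S2 libraries averaged 43.0 ± 36.4 genes (SD, n = 3) and Kc libraries 38.5 ± 20.5 genes (SD, n = 2), a difference of 4.5 genes (exact two-sided permutation p = 1, smallest possible p 0.1). The ratio to windows was 2.52 ± 1.71 and 2.31 ± 1.28 (exact permutation p = 1). Single libraries set the sign of the difference, which was -15 genes without S2 replicate 1, -10 without Kc replicate 1, 21 without S2 replicate 3 and 19 without Kc replicate 2. The median within-list percentile of the fold enrichment of tRNA peaks was 55.2, 61.5 and 60.4 in S2 and 53.9 and 57.6 in Kc, a little above the middle of each list, and differed by 3.26 points (exact permutation p = 0.3, adjusted 0.48). Fold and percentile are the authors' peak values, used within a list only.

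Gene by gene, 114 of the 295 tRNA genes (38.6%) had a peak in at least 1 CLAMP library, against 43.6% of all genes. As no tRNA gene had an IgG peak, the same 114 had a CLAMP peak and no IgG peak, a combination found at 31.6% of all genes. Of these 114, 57 had it in 1 library, 35 in 2, 11 in 3, 9 in 4 and 2 in all 5. The 22 genes with a peak in 3 or more libraries made up 7.46% of the tRNA genes, and the same count over all genes was 19.3%. Most of all genes are far longer than a tRNA gene. Of the 714 other genes of up to 200 bp, 155 had a peak in at least 1 CLAMP library, 62 in 3 or more and 20 in all 5. As a share, the tRNA genes lay above these short genes for at least 1 library. They lay below them for 3 or more and for all 5. Both lines held a peak at 41 tRNA genes (13.9%, all genes 22.6%), S2 alone at 48 (16.3%, all genes 13.9%) and Kc alone at 25 (8.47%, all genes 7.11%). The share for both lines lay below that of all genes, and the shares for 1 line lay slightly above.

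Most genes with an S2 peak had it in a single S2 library. Of the 89, 56 had a peak in 1 S2 library, 26 in 2 and 7 in all 3. The shorter sets lay mostly within that of replicate 1. Of the 37 genes of S2 replicate 2, 31 (83.8%) were also among the 82 of replicate 1 (37.8% of those), and of the 10 genes of S2 replicate 3, 9 were. Kc replicates 1 and 2 shared 11 genes, 45.8% of the 24 and 20.8% of the 53. S2 replicate 1 and Kc replicate 2, the libraries with the most tRNA genes, shared 35, which is 42.7% of the former and 66.0% of the latter.

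The genes held by all 5 CLAMP libraries were tRNA:Ala-TGC-2-1, an alanine tRNA gene (gene ID 3772554, 2R 17392215 to 17392286), and tRNA:Ile-TAT-1-1, an isoleucine tRNA gene (gene ID 3772410, 3L 769503 to 769600). Over all genes 5.31% were held by all 5. At tRNA:Ala-TGC-2-1, which lies outside protein-coding genes, the fold was 6.36, 12.8 and 2.97 in S2 and 3.83 and 4.11 in Kc, which placed the peak at the percentiles 91.6, 98.1 and 91.3 of the S2 lists and 96.1 and 87.2 of the Kc lists. Peaks of all 5 libraries shared at least 1 base there, although the strongest Kc replicate 2 peak (17391909 to 17392203) lay to the left of the gene and the summits of the other 4 between 17392480 and 17392633, to its right. That Kc replicate 2 peak and the S2 replicate 1 peak also reached the 200 bp flank of the neighbouring tRNA:Ala-TGC-1-1.

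At tRNA:Ile-TAT-1-1 the summits of all 5 libraries fell between 769263 and 769297, 206 to 240 bp to the left of the gene. Its fold was 9.34, 4.31 and 2.05 in S2 and 2.61 and 7.07 in Kc, and the percentiles were 97.3, 81.1 and 44.4 in S2 and 81.8 and 96.3 in Kc. S2 replicate 3 had the lowest percentile at this gene, and Kc replicate 2 at tRNA:Ala-TGC-2-1.

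Among the 22 genes held by 3 or more libraries the highest mean percentile, 98.1 over 4 libraries, belonged to tRNA:Tyr-GTA-1-8, a tyrosine tRNA gene at 3R 8669081 to 8669174 inside the protein-coding genes p and CG8036. The Kc replicates had folds of 4.16 and 9.34 and S2 replicates 1 and 2 of 10.8 and 13.3, and no peak was called in S2 replicate 3. The summits lay 198 and 203 bp from the gene in S2 and 234 and 203 bp in Kc, all on its right. tRNA:Pro-CGG-2-3, a single proline tRNA gene inside the gene not (3L 18618390 to 18618461), was held by the same 4 libraries with folds of 2.26, 5.80, 2.79 and 8.33. A peak between tRNA:Arg-TCG-2-2 and the pseudogene tRNA:Ile-AAT-2-1Psi inside Mnr (X 21231325 to 21232163) was counted for both and had folds of 4.59 and 4.84 in the first S2 libraries, replicates 1 and 2, and of 3.16 and 4.98 in Kc. These neighbours share their peaks and are not separate observations.

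The threonine tRNA genes tRNA:Thr-CGT-1-2 and tRNA:Thr-CGT-1-3 (3R 20891122 to 20891729) were held by S2 replicates 1 and 2 and both Kc libraries, with folds from 1.88 to 4.72. Their strongest S2 peaks were the same, so they are not separate observations. At tRNA:Thr-CGT-1-2 no base was shared by peaks of more than 3 of these libraries. At 19 of the 22 genes held by 3 or more libraries, peaks of all the holding libraries shared at least 1 base. tRNA:Arg-TCT-1-1, an arginine tRNA gene (2R 11652367 to 11652439), was held by all 3 S2 libraries, with folds of 4.18, 7.81 and 2.32, and by Kc replicate 1 with 2.15. In the S2 libraries the strongest summit there lay 366 to 630 bp to the left of the gene, which lies 28 bp from an end of CG34228. The other 11 genes held by 3 or more libraries, the S2 pattern below apart, had mean percentiles of 38.8 to 61.9. They include tRNA:Lys-TTT-2-1 and tRNA:Lys-TTT-2-4, whose strongest peaks all overlapped the 7SL RNA genes between them (3R 6820131 to 6822798).

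Few tRNA genes followed the line exactly. A peak in all 3 S2 and no Kc library was found at tRNA:Leu-CAA-2-3 (3R 23601333 to 23601455) and tRNA:Gln-CTG-2-3 (2L 2009538 to 2009609), 0.678% of the tRNA genes against 0.927% of all genes. Folds were 5.80, 8.90 and 2.17 at the leucine gene and 3.22, 2.84 and 2.10 at the glutamine gene. No tRNA gene had a peak in both Kc and no S2 library (all genes 1.23%).

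**Figure D3:**
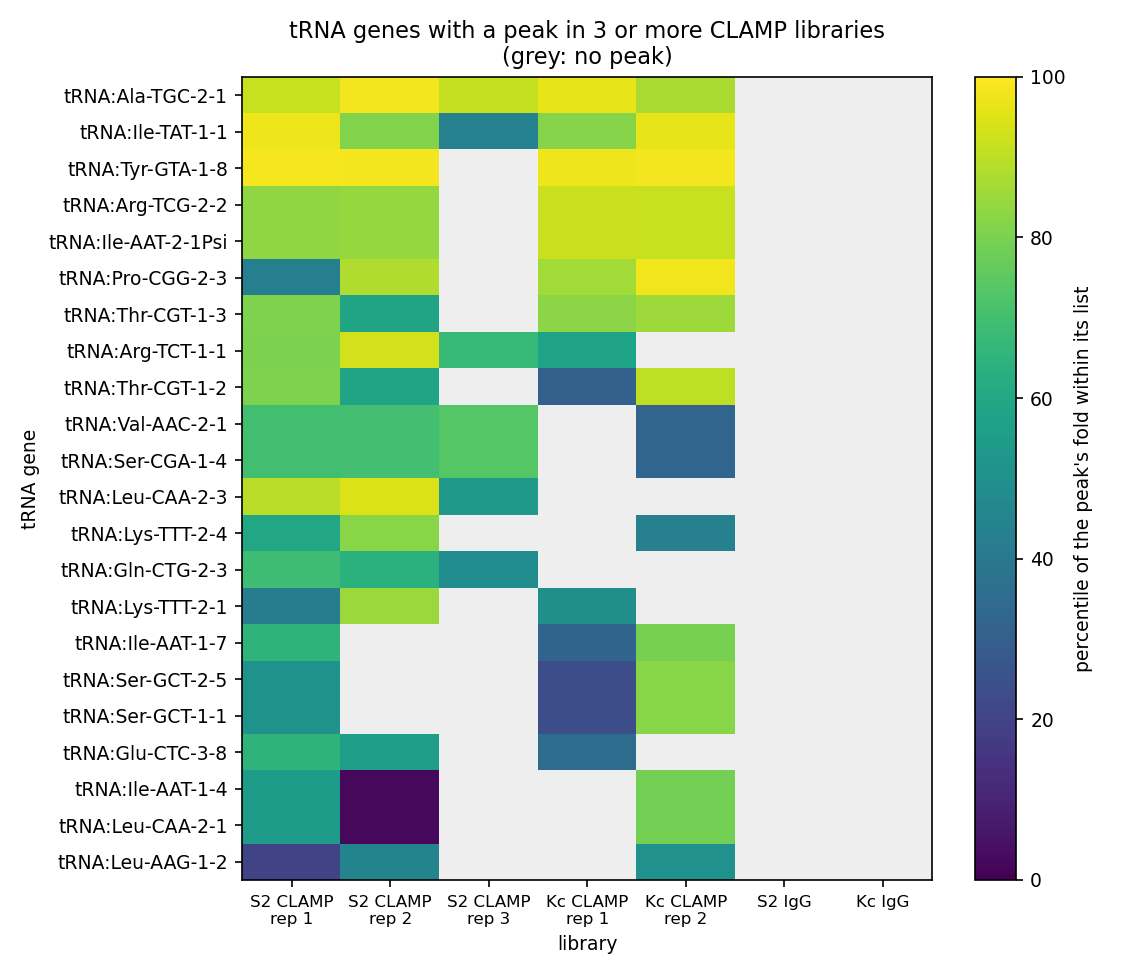
Percentile (0 to 100) of the fold of the strongest peak within its list for the 22 tRNA genes (rows) with a peak in 3 or more CLAMP libraries, in each of the 7 libraries (columns), where grey marks no peak. Both IgG columns are grey throughout, and tRNA:Ala-TGC-2-1 and tRNA:Ile-TAT-1-1 are filled in all 5 CLAMP columns.

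With the full lists, clustered tRNA genes had a peak more often than single ones in every CLAMP library, but not with the strongest peaks alone. A cluster was 3 or more tRNA genes with gaps of at most 5000 bp, which put 140 genes in 30 clusters, 78 in 39 pairs and 77 alone. With a peak were 34.3%, 13.6% and 3.57% of the clustered genes in S2 replicates 1 to 3 and 8.57% and 26.4% in Kc replicates 1 and 2, against 11.7%, 9.09%, 2.60%, 3.90% and 3.90% of the single genes. Pairs held a peak at 25, 11, 3, 9 and 13 of the 78 genes, or 32.1%, 14.1%, 3.85%, 11.5% and 16.7%. Paired genes thus also lay above single genes in every CLAMP library. They lay above clustered genes in S2 replicates 2 and 3 and Kc replicate 1. Genes in clusters of 5 or more had a peak less often than those in clusters of 3 or 4, except in Kc replicate 2. In both IgG libraries clustered, paired and single genes were all at 0.

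The difference between clustered and single genes was 22.6, 4.48 and 0.974 points in S2 and 4.68 and 22.5 points in Kc, a mean of 11.1 ± 10.6 (SD, n = 5). All 5 libraries had the same sign, which gives the smallest p that the exact two-sided sign-flip permutation test over 32 patterns allows, 0.063 (adjusted 0.25). One peak can reach several genes of a cluster. Counted as distinct peaks per 100 genes, an alternative added after seeing the data, the difference was 4.77 (exact permutation p = 0.188), and for peaks over the gene itself, with no flank, 3.68 points. In S2 replicate 3 the difference turned to -0.455 with distinct peaks and to -0.0649 points with a flank of 500 bp. With a q-value of 0.0001 or less it was 20.1, 4.22 and 0.714 points in S2 and 1.56 and 20.3 points in Kc. S2 replicate 3 kept 2 tRNA genes in that setting. With equally long CLAMP lists it was 15.8, 4.22 and 0.974 points in S2 and 1.56 and 17.3 points in Kc. With the 1165 strongest peaks of each list, each CLAMP library kept 2 to 10 tRNA genes. The difference was then -1.17, -0.455 and 0.714 points in S2 and 0.714 and 0.130 points in Kc, with signs that differed between libraries. By line it averaged 9.35 ± 11.6 points for S2 (SD, n = 3) and 13.6 ± 12.6 points for Kc (SD, n = 2), which did not differ beyond that spread (exact permutation p = 0.6).

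**Figure D4:**
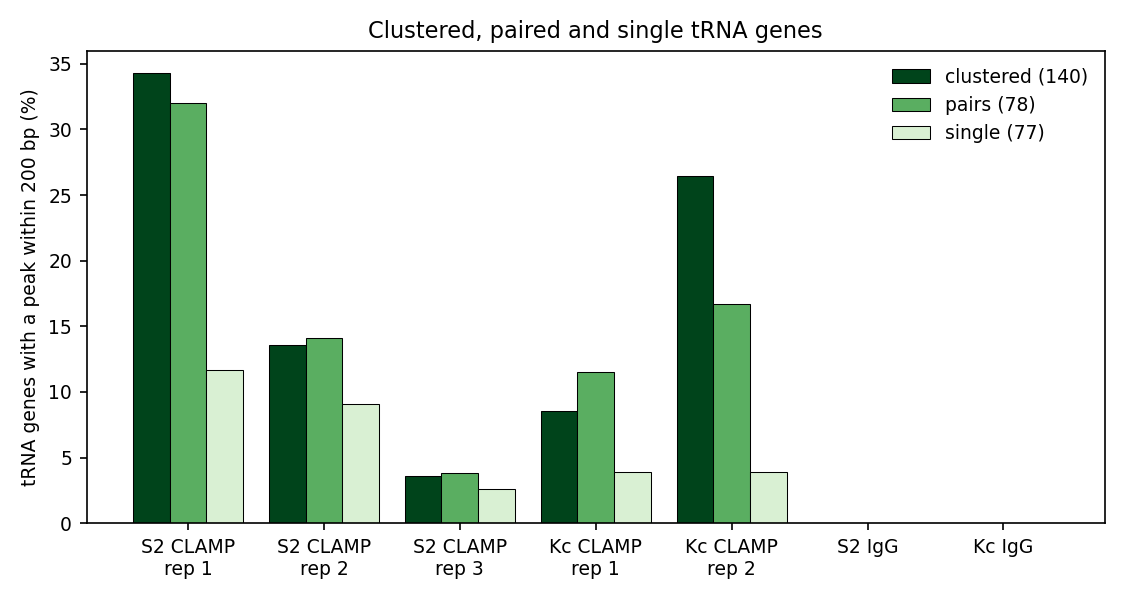
Share (%) of clustered (140), paired (78) and single (77) tRNA genes with a peak within 200 bp in each of the 7 libraries. Clustered genes stand above single genes in the 5 CLAMP libraries, by 0.974 to 22.6 points, and every bar is at 0 in the IgG libraries.

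By locus, 23 of the 30 clusters, 20 of the 39 pairs and 15 of the 77 single genes had a peak in at least 1 CLAMP library, a count in which a longer locus has more room for a peak. The 2 largest clusters, of 11 genes each, held peaks in Kc replicate 2 alone. At 2R 6161535 to 6171759 (lysine, arginine, asparagine and isoleucine tRNAs) these reached 2 genes, and at 3R 17617761 to 17631750 (alanine, proline, valine and threonine tRNAs) 4 genes. The cluster of 8 genes at 2R 19725620 to 19729353, mostly glutamate tRNAs, had a peak at 1 gene in S2 replicate 1 and at 3 in Kc replicate 2.

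The cluster of 7 genes inside ATP8A (2R 13430282 to 13432794; 5 isoleucine and 2 leucine tRNA genes) had peaks in 4 of the 5 CLAMP libraries, at 5 and 2 genes in S2 replicates 1 and 2 and at 2 and 6 in Kc replicates 1 and 2, and each of its 7 genes had a peak in at least 1 of them. The X-linked cluster of 7 arginine and serine genes (14014814 to 14017284) had peaks at 2 genes in Kc replicate 1 alone. Of the 4 clusters of 6 genes, that of glutamate tRNAs inside Ptp61F (3L 1397695 to 1401852) had peaks at 2 genes in each of S2 replicates 1 and 2 and at 1 in Kc replicate 1. That of cysteine and lysine tRNAs inside Cht7 (3L 3095737 to 3097590) had them at 4 genes in S2 replicate 1 and 3 in Kc replicate 2, and that of arginine and asparagine tRNAs (3R 8139533 to 8141042) at 2 and 4 genes in the same libraries. The cluster of leucine tRNAs at 3L 8060214 to 8068290 had none. The 5 glutamine genes at 2L 2009155 to 2013250, named after their values were seen because tRNA:Gln-CTG-2-3 is among them, held peaks at 3, 1 and 2 genes in the S2 libraries and at none in the Kc libraries.

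With the full lists, tRNA genes close to a protein-coding gene end were ahead of the others by a margin that 1 library carried. Of the 71 genes within 500 bp of such an end, 40.8%, 15.5% and 4.23% had a peak in S2 and 8.45% and 18.3% in Kc, against 23.7%, 11.6%, 3.13%, 8.04% and 17.9% of the 224 others. The differences were 17.2, 3.89 and 1.10 points in S2 and 0.415 and 0.453 in Kc, a mean of 4.61 ± 7.17 (SD, n = 5; exact two-sided sign-flip permutation p = 0.063, the smallest possible, adjusted 0.25). Without S2 replicate 1 the mean was 1.46 points, and with equally long CLAMP lists 0.306. Position inside a protein-coding gene gave near-equal shares, with a peak in at least 1 CLAMP library at 53 of 137 genes inside (38.7%) and 61 of 158 outside (38.6%).

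Every amino acid label but selenocysteine was represented among the 114 genes with a CLAMP peak. Histidine (5 of 6 genes) and isoleucine (9 of 12) stood at the high end, and asparagine (1 of 10) and glycine (2 of 20) at the low end, against 38.6% of all tRNA genes. These are not separate observations: the 5 histidine genes form 1 cluster (2R 12333926 to 12336804) with 2 peaks in S2 replicate 1 and 1 in Kc replicate 2, and 5 of the 9 isoleucine genes lie in the cluster inside ATP8A. The glycine calls were both from S2 replicate 1. Of the 6 initiator methionine genes, which start translation, tRNA:iMet-CAT-1-4 and tRNA:iMet-CAT-1-5 (3L 14673942 to 14674415) shared 1 peak in S2 replicate 2 and 1 in Kc replicate 1, at percentiles of 18.1 and 20.4, and the other 4 had none. The selenocysteine gene tRNA:SeC-TCA-1-1 had none either. On X, 5, 7 and 0 of the 26 tRNA genes had a peak in S2 and 4 and 2 in Kc. On 2L these numbers were 12, 7 and 2 of 41 in S2 and 0 and 2 in Kc. No test by arm was made, and the shares of all genes on each arm were not counted. Neighbouring 2L genes such as tRNA:Asp-GTC-1-8 and tRNA:Asp-GTC-1-9 shared a peak in S2 replicate 1 and are not separate observations. The other arms did not follow 2L. On 2R the numbers were 35, 11 and 6 of 100 in S2 and 6 and 28 in Kc. On 3L they were 9, 6 and 1 of 49 in S2 and 7 and 5 in Kc. On 3R they were 21, 6 and 1 of 79 in S2 and 7 and 16 in Kc.

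Other genes transcribed by RNA polymerase III gave mixed counts. All 3 U6 snRNA genes had CLAMP peaks, but snRNA:U6:96Aa and snRNA:U6:96Ab had peaks in all 5 CLAMP libraries and in both IgG libraries as well. Both 7SL RNA genes, which encode the RNA of the signal recognition particle, were held by S2 replicates 1 and 2 and both Kc libraries and by no IgG library. Of the 100 5S rRNA genes, near-identical copies whose reads cannot be told apart, 4, 0 and 7 had a peak in S2 CLAMP, 2 and 4 in Kc CLAMP and 7 in Kc IgG.

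The genes for the polymerase and for tRNA charging were protein-coding and longer, and are set against the shares of all genes. Those were 29.7%, 21.3% and 13.4% in S2 CLAMP, 22.3% and 22.8% in Kc CLAMP, 3.16% in S2 IgG and 18.3% in Kc IgG. Of 16 genes for RNA polymerase III and its factors 6, 1 and 3 had a peak in S2 CLAMP (37.5%, 6.25% and 18.75%). In Kc CLAMP 3 and 4 had one (18.75% and 25%), in S2 IgG 2 (12.5%) and in Kc IgG 5 (31.25%). Maf1, a repressor of the polymerase, was held by all 7 libraries, and Trf and Tbp by none. Of 20 aminoacyl-tRNA synthetase genes, which load tRNAs with amino acids, 12, 6 and 4 had a peak in S2 CLAMP (60%, 30% and 20%). In Kc CLAMP 3 and 10 had one (15% and 50%), in Kc IgG 3 (15%) and in S2 IgG 0. The aspartate enzyme gene AspRS was held by all 5 CLAMP libraries and by Kc IgG, and the lysine enzyme gene LysRS by all 3 S2 libraries and no other. All 5 CLAMP libraries held 5.31% of all genes, and all 3 S2 and no Kc CLAMP library held 0.927%.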

How the data were processed

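CUT&RUN libraries were made from unfixed cells grown at 25 °C, with 1 ng of DNA and 14 PCR cycles, and sequenced as pairs of 25 bp reads, per the labels' protocols. Per the submitters' processing notes, MACS2, Bowtie2, Trimmomatic and FastQC were used, with the build dm6. Not given in the sources used here are versions, parameters, the control of the peak calling, duplicate removal and the handling of reads with several matches. The authors deposited a narrowPeak list for each library, and replicates were not pooled. In the authors' deposited lists the fold is a ratio, summit signal over estimated background, and each summit has a −log10 p and a −log10 q. The deposited score is 10 times the −log10 p as a whole number and served no result. The list of S2 replicate 3 carries another internal number than its title, which was followed.

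Rows sharing an interval were joined, keeping the strongest summit. Genes came from RefSeq, Release 6 plus ISO1 MT, without strand. Sequences were not used here. Arm lengths for the windows ended at the last gene or peak. Libraries were compared by exact permutation tests, two-sided on the absolute difference of means, over all splits, or by sign flips for differences within libraries, with Benjamini-Hochberg adjustment over 8 tests. The p-values reflect nothing but the variation among these libraries, possibly technical. The fold percentile of tRNA peaks could not be set against IgG, which had none. Named genes were those held by all 5 CLAMP libraries, those held by all libraries of 1 line and none of the other, the 10 highest by mean fold percentile among those held by 3 or more, and the initiator methionine and selenocysteine genes. The rule for clusters named the 6 largest, and ties were added. The other genes of up to 200 bp were added as a list after seeing the data. Members and lists were chosen with earlier results of these data known. Counting was tested on simulated peaks. Analyses used Python 3.11.15, numpy 2.4.6, pandas 2.3.3 and matplotlib 3.10.9.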

Additional observations from a re-analysis of the deposited data

How the results depend on the processing

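Of 102 results under alternatives, 92 kept their direction and 10 did not, and the cause was not tested. Some of the 92 had no room to change. Where both IgG libraries stood at 0, CLAMP against IgG could not reverse. No CLAMP peak at a tRNA gene overlapped an IgG peak, so leaving out such peaks changed no tRNA gene count. The 102 do not include clustered minus single genes, or near minus far from protein-coding ends, with the 1165 strongest peaks. In that setting the signs of both differed between libraries. The 10 reversed results all concern S2 against Kc CLAMP. With a flank of 500 bp the difference in genes was -3 and in the ratio to windows -0.0818, and with a q-value of 0.0001 or less the ratio differed by -0.161. The fold percentile differed by -2.98 points with no flank and by -8.34 with equally long lists. Leaving out each library in turn gave -15 to 21 genes, -0.731 to 1.12 in the ratio, 1.40 to 5.19 percentile points, and -13.2 to 4.68 points for clustered minus single genes by line. For CLAMP against IgG it gave 31 to 49 genes and 1.94 to 2.78 in the ratio, for clustered minus single genes 8.17 to 13.6 points and for genes near protein-coding ends 1.46 to 5.66. The ratio of CLAMP against IgG reached p = 0.0476 in the exact permutation test with a flank of 500 bp (difference 2.36); its other alternatives gave p from 0.0952 to 0.333. Pairing S2 and Kc by replicate number (replicate block) gave 21 genes, 0.949 in the ratio, -0.0649 points for clusters and 2.59 percentile points, and changed no call. The numbers are not stated to mark a shared batch, and same-numbered libraries deviated with r = -0.272 and -0.233 over the tRNA genes. With only 2 Kc libraries, the crossed pairs must give the same values with opposite sign, 0.272 and 0.233. These correlations therefore cannot tell whether a batch was shared. Depth is unknown, so missing peaks may be undetected.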

Other observations

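Small RNA genes outside the tRNA genes differed in how often they held peaks. Of the 27 snRNA genes other than U6 and 7SK, which serve mostly in splicing, 10, 6 and 1 had a CLAMP peak within 200 bp in S2 replicates 1 to 3 and 4 and 8 in Kc replicates 1 and 2, against 0 in S2 IgG and 1, snRNA:U1:82Eb, in Kc IgG. Of the 257 snoRNA genes, which guide rRNA modification, 26, 17 and 6 had one in S2 and 18 and 29 in Kc. snRNA:7SKa was held by S2 CLAMP replicate 2 and both Kc CLAMP libraries and by no IgG library. RNaseMRP:RNA was held by 2 CLAMP libraries, and RNaseP:RNA and snRNA:7SKb by none.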
